A study of Homo sapiens with 8 samples.

Results

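The circadian clock genes described here are 10 genes, PER1, PER2, PER3, CRY1, CRY2, CLOCK, NPAS2, NR1D2, DBP and TEF, out of 18417 genes with a probe set on the array. They were taken by name and matched through the platform annotation to probe sets that pair with 1 gene symbol. All 10 members had such a probe set, and each had 1, so no choice between probe sets was needed. Total RNA of U373 cells, an established human astrocytoma line, was hybridised to 8 whole-transcript Affymetrix arrays, 2 per group. The groups were vehicle, 10 nM progesterone, 1 µM RU-486 (mifepristone, an antagonist of the progesterone and glucocorticoid receptors), and both steroids together, each for 12 h. All groups had first been kept in medium with hormone-free serum. Some label fields give the compound as RU-484 and the line as U37, read here as RU-486 and U373. All arrays come from 1 time after treatment, so a level was measured and no oscillation or phase.

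The circadian clock is a feedback loop of transcription that runs in most cells, astrocytes included. CLOCK or its paralog NPAS2 pairs with BMAL1 and switches on the PER and CRY genes through E-box sequences, and PER and CRY proteins then shut that pair down. The nuclear receptor NR1D2 represses BMAL1 through ROR elements, and DBP and TEF are leucine zipper factors that carry the rhythm to output genes through D-box sequences. PER1 is in addition a known direct target of the glucocorticoid receptor, and of cAMP signalling through CREB.

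Promoter sequences are shown first because E-boxes, ROR elements and D-boxes are the sites named above for clock factors. Only letters were searched, and binding was not measured. The sequences were read from RefSeq promoter windows of build GRCh38.p14, which run from 250 bases before to 50 after an annotated start. All 10 members matched, with 15 windows, and both strands were searched for 5 motifs. The motifs were the E-box CACGTG, 1 form of the D-box, TTATGTAA, the ROR element TAGGTCA, the cAMP response element TGACGTCA, and the steroid receptor element by its consensus of paired half-sites with 3 free bases between. The matches do not overlap one another. 5 members held a match, and capitals mark the matched letters below, with the gene strand 5′ to 3′. Stretches that lie downstream of another start of the same gene were kept short.

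PER1 E-box, minus strand, chr17:8152542-8152607: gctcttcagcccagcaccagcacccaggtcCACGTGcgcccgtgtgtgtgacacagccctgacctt
PER3 D-box, plus strand, chr1:7784084-7784151: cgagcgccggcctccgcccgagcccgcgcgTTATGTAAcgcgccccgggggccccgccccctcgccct
CRY2 ROR element, plus strand, chr11:45847400-45847426: tgcggcgtcaTAGGTCActgggcgggc
NR1D2 D-box (reverse complement of the letters searched), plus strand, chr3:23945917-23945944: tgacgcggcaTTACATAAtgggcgctga
NR1D2 first E-box, plus strand, chr3:23945956-23945981: cgggcggggaCACGTGaggccgctcg
NR1D2 second E-box, plus strand, chr3:23946006-23946031: gccgcagggaCACGTGggggcggggg
TEF E-box at one start, plus strand, chr22:41367230-41367295: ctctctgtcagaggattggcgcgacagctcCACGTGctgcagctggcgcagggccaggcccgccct
TEF E-box at another start, plus strand, chr22:41381739-41381764: cctggccccgCACGTGtctatcttat

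The D-box lay 177 bases before an annotated start in PER3 and 194 in NR1D2, and the ROR element 65 bases before one in CRY2. Each of these genes has another window, at another start, that held no match. The E-box lay 173 bases before the start in PER1 and 195 and 193 bases before the respective starts in TEF. In NR1D2 it lay 155 and 105 bases before the same start as the D-box. Of all 35116 promoter windows, 7.26% held an E-box, 0.886% the D-box form, 1.85% the ROR element, 1.85% the cAMP response element and 0.390% the steroid receptor element. No member's window held the last pair of motifs. The shares are per window and per motif, so they give no background for the 5 of 10 members with any match. That background was not counted. The windows of PER2, CRY1, CLOCK, NPAS2 and DBP held none of the 5, which says only that these letters are not in these windows.

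The deposited values are log2 expression per probe set, and differences were fitted with limma over all 18417 genes. A gene was called at a Benjamini-Hochberg adjusted p under 0.05. Across all genes, replicate differences had an SD of 0.35 log2 units after progesterone and of 0.16 to 0.18 in the other groups. A single spread is fitted for all groups. It may understate the error of progesterone against vehicle and of the combination against progesterone. The average effects and the interaction weight all 4 groups equally, and there the single spread is an average over the groups. For contrasts that do not use those arrays it may overstate the error. The labels call the replicates biological without naming separate cultures, so each p-value speaks only of how far these samples varied. In these bulk samples, fewer cells carrying a transcript and less transcript per cell cannot be told apart. Signal near background was judged against 341 olfactory receptor genes, 95% of which had a mean log2 level under 6.22. All 10 clock genes had a mean above that level, and 8 of 9 astrocyte and glioma markers did too, among them VIM at 13.4, SOX2 at 12.0, S100B at 9.59 and GFAP at 7.54. The water channel gene AQP4 did not, at 4.19. The leukocyte marker PTPRC (3.44), the endothelial marker PECAM1 (4.96) and the epithelial marker EPCAM (4.74) lay below it, while the endothelial CDH5 (8.57), the epithelial KRT18 (9.62) and KRT8 (7.15) and 3 of 5 neuron markers lay above.

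None of the 10 clock genes was called in any of the 7 contrasts or in the test over all 4 groups. The contrasts are each treatment against vehicle, the combination against progesterone, the average effect of RU-486, the average effect of progesterone, and the interaction. Each average effect compares the 4 arrays with a steroid with the 4 without it, and the interaction is the RU-486 difference with progesterone minus that without it. Over all genes the share called was 0.0326% for the average RU-486 effect, 6 genes in all, and 0% in each other comparison. At an unadjusted p under 0.05 the limma fit placed 4 of 10 members for the average RU-486 effect, where 11.0% of all genes lay there. In the test over the 4 groups it placed 2, NPAS2 and PER1, against 7.63% of all genes. The members and the gene lists used below were chosen with earlier results of these data known, so such counts only describe them.

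NPAS2, a partner of BMAL1 that can stand in for CLOCK, had the smallest p of the members. Its log2 levels were 10.70 and 10.62 in vehicle, 10.56 and 10.51 after progesterone, 10.86 and 10.93 after RU-486, and 11.04 and 10.99 after both steroids. Every array with RU-486 lay above every array without it, and the arrays after both steroids lay above those after RU-486 alone. Of all genes, 5.60% separated the 4 arrays with RU-486 from the 4 without it in either direction, and NPAS2 was the 1 clock gene of 10 that did. The average RU-486 difference was 0.36 ± 0.06 log2 units (SE; 95% interval 0.23 to 0.49), or 1.28-fold. NPAS2 ranked 34 among all genes by p, and the limma adjusted p of 0.172 did not pass.

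With each array left out in turn, the NPAS2 difference stayed between 0.34 and 0.38 log2 units, while its call depended on the setting. Leaving out progesterone replicate 1 leaves that group a single array, which adds nothing to the spread. Many more genes then passed for the average RU-486 effect and the combination against progesterone than in the main fit. A pass in that setting, here or for CLOCK below, is therefore not particular to the gene. Without progesterone replicate 1 the limma adjusted p was 0.0403, and with a variance that depends on expression level and resists outliers it was 0.0267, so that NPAS2 passed under both. Over all its alternatives the adjusted p ran from 0.0267 to 0.933. The replicates of NPAS2 differed by 0.05 to 0.08 log2 units in the 4 groups, and 6.93% of genes had a smaller pooled SD.

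Against vehicle, NPAS2 stood 0.23 ± 0.08 log2 units higher after RU-486 (SE; limma unadjusted p = 0.0193, adjusted p = 1.00) and 0.35 ± 0.08 higher after both steroids (limma adjusted p = 0.374). Progesterone alone gave -0.13 ± 0.08, with an interval of -0.31 to 0.06 that holds 0. Set against progesterone alone, the combination gave 0.48 ± 0.08, or 1.39-fold (limma adjusted p = 0.209). That value passed without progesterone replicate 1 (limma adjusted p = 0.0427) and with the variance that follows expression level (limma adjusted p = 0.0486), over a range of 0.0427 to 0.884 for all alternatives. The interaction was 0.24 ± 0.11, with an interval of -0.02 to 0.50 (limma adjusted p = 0.828), so the data do not tell whether the NPAS2 difference with RU-486 depends on progesterone.

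CLOCK, the paralog of NPAS2 and itself an activator of PER and CRY genes, varied most of the 10 between the arrays of 1 group. Its log2 levels were 8.89 and 9.31 in vehicle, 8.38 and 9.61 after progesterone, 8.52 and 8.90 after RU-486, and 8.27 and 8.46 after both steroids. The progesterone arrays alone spanned nearly the whole range, and arrays with and without RU-486 overlapped. The average RU-486 difference was -0.51 ± 0.26 log2 units (SE), with an interval of -1.13 to 0.11 and a limma adjusted p of 0.499. It was -0.82 and passed without progesterone replicate 1 (limma adjusted p = 0.0403), and it was -0.20 without progesterone replicate 2. Over all alternatives its adjusted p ran from 0.0403 to 0.933. The combination gave -0.74 ± 0.37 against vehicle (limma adjusted p = 0.407) and -0.63 ± 0.37 against progesterone (limma adjusted p = 0.453), the latter -1.25 without progesterone replicate 1 and -0.02 without progesterone replicate 2 (limma adjusted p from 0.0427 to 0.971 over all alternatives). The sign of the CLOCK value is opposite to that of NPAS2, and a test of one paralog against the other was not made.

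**Figure D1:**
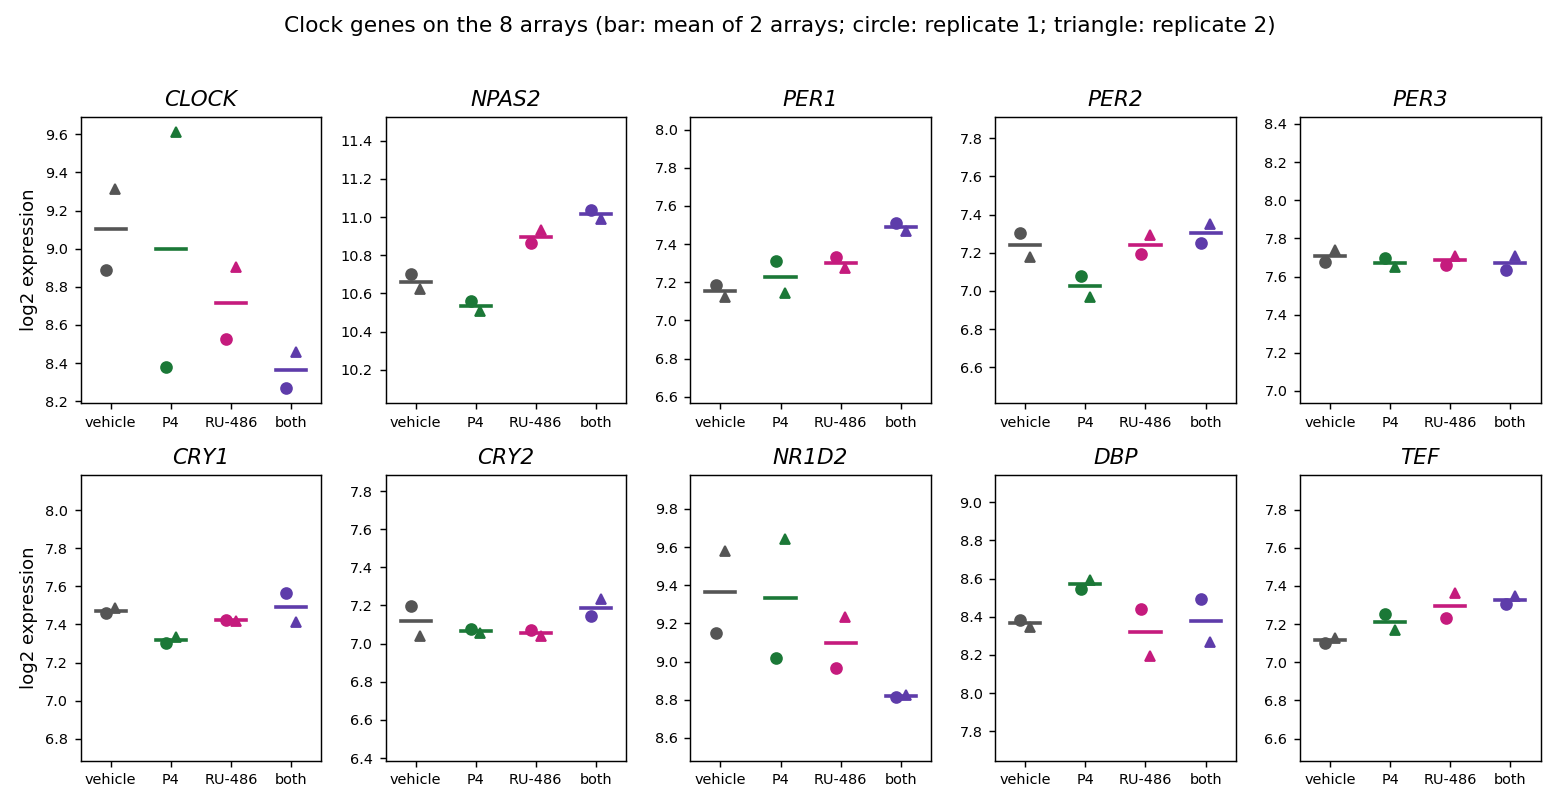
Log2 expression of each clock gene on the 8 arrays, by treatment group (P4, progesterone; both, progesterone plus RU-486), with every vertical axis spanning 1.5 log2 units. Circles and triangles are replicates 1 and 2 and bars are means of 2 arrays; the 4 NPAS2 arrays with RU-486 lie above the 4 without it, while the progesterone arrays of CLOCK lie at 8.38 and 9.61.

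The PER genes encode proteins that repress CLOCK and NPAS2. PER1 and PER2 had their highest group mean after both steroids and PER3 in vehicle, and no PER gene was tested against another. PER1 was at 7.19 and 7.12 in vehicle, 7.31 and 7.15 after progesterone, 7.33 and 7.27 after RU-486, and 7.51 and 7.47 after both steroids, on the log2 scale. The arrays after both steroids lay above all 6 others, and those after RU-486 alone overlapped with progesterone replicate 1. How many of all genes have the arrays of 1 group outside the 6 others was not counted. Such orderings, here and for the genes below, therefore only describe the values. For PER1 the average RU-486 difference was 0.21 ± 0.06 log2 units (SE; interval 0.06 to 0.35; limma unadjusted p = 0.0120, adjusted p = 0.421). The combination against vehicle gave 0.33 ± 0.09, or 1.26-fold (limma unadjusted p = 0.00599, adjusted p = 0.374). Progesterone averaged over both backgrounds gave 0.13 ± 0.06, with an interval of -0.01 to 0.27. None of these passed.

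PER2 had its lowest levels after progesterone alone. The log2 levels were 7.31 and 7.18 in vehicle, 7.08 and 6.97 after progesterone, 7.19 and 7.29 after RU-486, and 7.25 and 7.35 after both steroids. Both progesterone arrays lay under all 6 others. Against vehicle, progesterone gave -0.22 ± 0.09 log2 units (SE; limma unadjusted p = 0.0478, adjusted p = 0.741), where 6.13% of all genes had an unadjusted p under 0.05 and PER2 was the 1 clock gene to do so. The combination against progesterone gave 0.28 ± 0.09 (limma unadjusted p = 0.0183, adjusted p = 0.288). RU-486 alone against vehicle gave 0.00 ± 0.09, with an interval of -0.21 to 0.22, and the interaction was 0.28 ± 0.13 (limma adjusted p = 0.828).

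PER3 had the narrowest range of the 10. Its 8 arrays ran from 7.63 to 7.74 with a median of 7.69, a span of 0.11 log2 units. The group means spanned 0.04, which is less than the largest difference between replicates, 0.08. Its 95% interval for the average RU-486 difference was -0.14 to 0.12, so a change of 0.2 log2 units either way lies outside it.

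The CRY genes, whose proteins are the main repressors of the loop, differed little between groups. CRY1 was at 7.46 and 7.48 in vehicle, 7.30 and 7.34 after progesterone, 7.42 and 7.42 after RU-486, and 7.57 and 7.41 after both steroids. Both progesterone arrays of CRY1 lay under the other 6, as with PER2, but the difference from vehicle was -0.15 ± 0.08 log2 units (SE), with an interval of -0.35 to 0.04 (limma adjusted p = 0.741). The average RU-486 difference of CRY1 was 0.06 ± 0.06. CRY2 was at 7.20 and 7.04 in vehicle, 7.08 and 7.06 after progesterone, 7.07 and 7.04 after RU-486, and 7.15 and 7.23 after both steroids. The vehicle arrays of CRY2 spanned most of that range, and its average RU-486 difference was 0.03 ± 0.06 (interval -0.11 to 0.17).

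NR1D2, a nuclear receptor that represses BMAL1, resembled CLOCK in its spread. The log2 levels were 9.15 and 9.58 in vehicle, 9.02 and 9.64 after progesterone, 8.96 and 9.23 after RU-486, and 8.81 and 8.83 after both steroids. Both arrays after the combination lay under the other 6, and arrays after RU-486 alone overlapped with those of vehicle. For NR1D2 the average RU-486 difference was -0.39 ± 0.16 log2 units (SE; interval -0.76 to -0.01; limma unadjusted p = 0.0439, adjusted p = 0.443), or 1.31-fold lower. It was -0.55 without progesterone replicate 1 and -0.23 without progesterone replicate 2. The combination against vehicle gave -0.54 ± 0.22 (limma unadjusted p = 0.0454, adjusted p = 0.374). That value was -0.33 without vehicle replicate 2, and -0.19 with the array score described below as a covariate.

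DBP and TEF, the output factors, were not tested against each other. DBP was at 8.39 and 8.34 in vehicle, 8.55 and 8.59 after progesterone, 8.44 and 8.19 after RU-486, and 8.49 and 8.27 after both steroids. The progesterone arrays of DBP lay above the other 6, and its replicates with RU-486 differed by 0.25 and 0.23 log2 units. Progesterone against vehicle gave 0.21 ± 0.11 (SE; interval -0.06 to 0.48; limma adjusted p = 0.744), and the average RU-486 difference was -0.12 ± 0.08 (interval -0.31 to 0.07). The latter was -0.18 without RU-486 replicate 1, and -0.06 without either RU-486 replicate 2 or combination replicate 2.

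TEF was at 7.10 and 7.13 in vehicle, 7.25 and 7.17 after progesterone, 7.23 and 7.36 after RU-486, and 7.30 and 7.35 after both steroids. Both vehicle arrays lay under the other 6. For TEF the average RU-486 difference was 0.15 ± 0.06 log2 units (SE; interval 0.01 to 0.29; limma unadjusted p = 0.0397, adjusted p = 0.440), and the combination against vehicle gave 0.21 ± 0.08 (limma unadjusted p = 0.0380, adjusted p = 0.374).

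**Figure D2:**
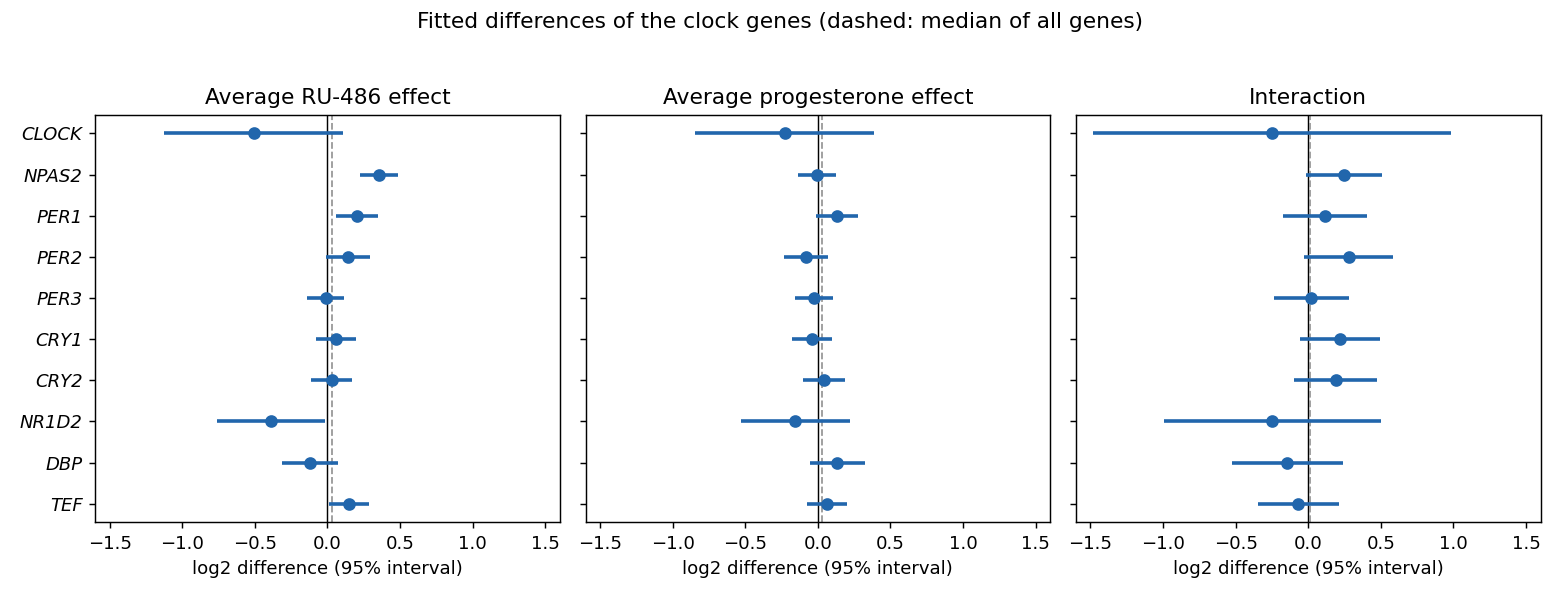
Fitted log2 differences of the 10 clock genes for the average RU-486 effect, the average progesterone effect and the interaction; points are estimates, lines are 95% intervals from limma and the dashed line is the median over all genes. For the average RU-486 effect the interval leaves out 0 for NPAS2, PER1, TEF and NR1D2, and it is widest for CLOCK, from -1.13 to 0.11.

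For the average RU-486 effect, 6 of the 10 members had a higher mean and 4 a lower one, with a median difference of 0.04 log2 units. Over all genes 62.5% had a higher mean and the median was 0.03, so the median of the members was close to that of the array. The members at an unadjusted p under 0.05 were NPAS2, PER1 and TEF above 0 and NR1D2 below. For the average progesterone effect 4 members were higher and 6 lower, with a median of -0.01 against 0.03 over all genes. There 0 members had an unadjusted p under 0.05 in limma, against 5.03% of all genes, and 0 members separated the arrays with progesterone from those without, against 2.86% of all genes. For the interaction 6 members were above 0, the median was 0.07 against 0.01, and 0 members had an unadjusted p under 0.05, against 5.28% of all genes.

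The comparisons with vehicle share the vehicle arrays, so their counts are not independent. At an unadjusted p under 0.05 lay 1 member after progesterone (PER2), 1 after RU-486 (NPAS2, against 3.10% of all genes) and 4 after both steroids (PER1, NPAS2, TEF and NR1D2, against 13.2%). Adding RU-486 to progesterone placed 3 members there, NPAS2, PER1 and PER2, against 14.6% of all genes. In that comparison the members had a median difference of 0.12 log2 units and all genes one of 0.03.

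For some members replicate 1 lay on the same side of replicate 2 in all 4 groups, at shares near those of all genes. CLOCK and NR1D2 were lower on replicate 1 than on replicate 2 in all 4 groups, as were 14.0% of all genes. For CLOCK the gap was 0.42 log2 units in vehicle, 1.23 after progesterone, 0.38 after RU-486 and 0.19 after both steroids. For NR1D2 it was 0.43, 0.63, 0.27 and 0.01 in the same order. PER1 was higher on replicate 1 in all 4 groups, by 0.04 to 0.16 log2 units, as were 14.1% of all genes. The pooled replicate SD was 0.48 for CLOCK and 0.28 for NR1D2, and 99.0% and 94.3% of genes had a smaller one.

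**Figure D3:**
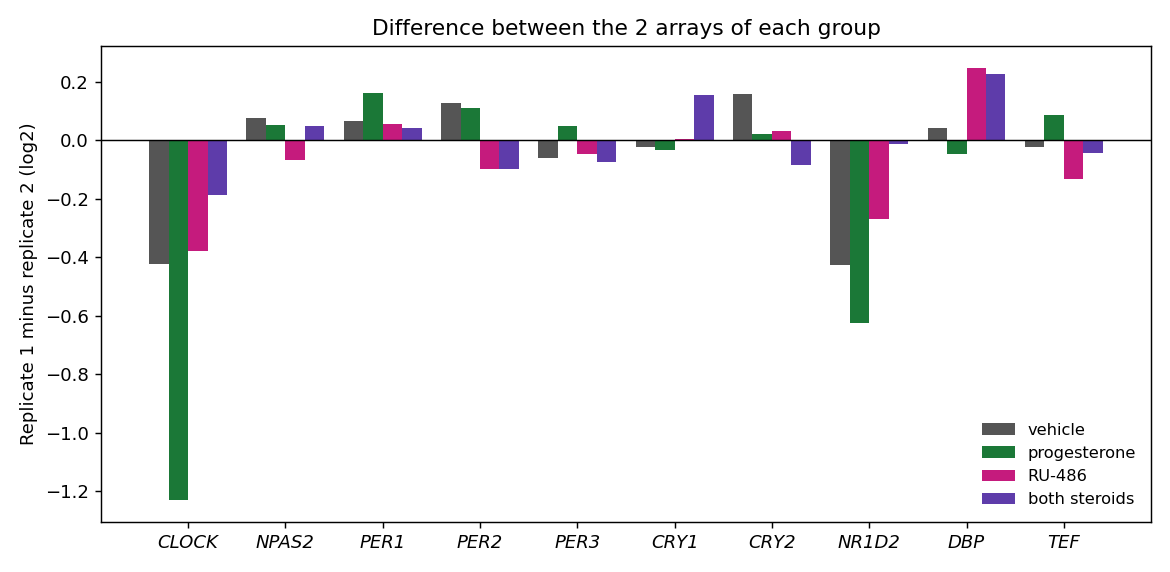
Replicate 1 minus replicate 2 in log2 units for each clock gene, with 1 bar per treatment group. The bars of CLOCK and NR1D2 are negative in all 4 groups, down to -1.23 for CLOCK after progesterone, and the bars of the other 8 genes lie within 0.25 of 0.

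A single direction held 66.4% of the variance within groups over all genes, and each array has a score on it. The progesterone arrays lay at its ends, at 21.8 and -24.7. Combination arrays scored 16.7 and 8.11, RU-486 arrays 4.23 and -3.84, and vehicle arrays -3.71 and -18.7, replicate 1 being given first. This direction held 98.4% of the within-group variance of CLOCK, 97.2% of that of PER1 and 87.3% of that of NR1D2. It held 31.1% for NPAS2, 23.1% for PER2 and between 0.203% and 9.05% for PER3, CRY1, CRY2, DBP and TEF. The progesterone replicates lay furthest apart on this direction, so a share rests mainly on that pair. A share is also relative to the gene's own spread. The pooled replicate SD of PER1 was 0.07, and 19.8% of genes had a smaller one. The score also carries differences between the groups. As a covariate it therefore takes out any treatment difference along that direction together with the replicate spread. With the score as a covariate, a setting chosen after seeing the data, CLOCK was at -0.10 log2 units for the combination against vehicle. Under that setting the average RU-486 difference of CLOCK was -0.17 and that of NR1D2 was -0.20 log2 units. The covariate left NPAS2 at 0.34 and PER1 at 0.16. The median log2 level of 16 G2/M genes, which are active before and during cell division, ran from 10.66 to 10.86 on the arrays with RU-486 and from 10.91 to 11.17 on those without. A median of levels can follow a few genes of the list. For the average RU-486 effect 14 of the 16 were lower and 2 higher, where 62.5% of all genes were higher. In limma 6 lay at an unadjusted p under 0.05, against 11.0% of all genes. Of the 16, 3 separated the arrays with RU-486 from those without, all 3 lower with RU-486, against 5.60% of all genes in either direction. The part of these differences in the values of the clock genes was not tested.

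Other clock genes were taken from a list of 30 symbols, some of them older names of a gene also listed under its current one. Of these symbols 23, each a different gene, had a probe set that pairs with them alone, and the rest are not analysed here. In limma 0 were called in any contrast. For the average RU-486 effect 14 were higher and 9 lower, where 62.5% of all genes were higher, with a median of 0.04 log2 units, close to the 0.03 of all genes. At an unadjusted p under 0.05 lay 3 of the 23, against 11.0% of all genes. KLF10, a zinc finger factor under clock control, was at 8.97 and 8.95 in vehicle, 8.88 and 8.85 after progesterone, 9.20 and 9.16 after RU-486 and 9.10 and 9.20 after both steroids. All 4 KLF10 arrays with RU-486 lay above the 4 without it, as did those of NOCT and CIART, 2 genes named after their values were seen. That makes 3 of 23, against 5.60% of all genes. The average KLF10 difference was 0.25 ± 0.05 (SE; limma unadjusted p = 0.00222, adjusted p = 0.327). NFIL3, a repressor at D-boxes and so the counterpart of DBP and TEF, stood at 0.20 ± 0.08 (limma adjusted p = 0.434), and the deacetylase gene SIRT1 at -0.16 ± 0.06 (limma adjusted p = 0.439).

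BMAL1, the partner of CLOCK and NPAS2, had the smallest p of these 23 genes for the interaction. Its log2 levels were 8.80 and 8.92 in vehicle, 8.62 and 8.65 after progesterone, 8.68 and 8.79 after RU-486, and 8.98 and 8.98 after both steroids. The arrays with 1 steroid lay under both vehicle arrays, and the arrays with both steroids lay above them. Progesterone against vehicle gave -0.23 ± 0.08 (SE; limma unadjusted p = 0.0282, adjusted p = 0.741), and the combination against progesterone gave 0.34 ± 0.08 (limma unadjusted p = 0.00418, adjusted p = 0.266). The BMAL1 interaction was 0.47 ± 0.12, with an interval of 0.20 to 0.75 (limma unadjusted p = 0.00482, adjusted p = 0.828), which did not pass among all genes.

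In the combination against progesterone 7 of the 23 lay at an unadjusted p under 0.05, 5 above 0 and 2 below, where 14.6% of all genes did. Besides BMAL1, KLF10 stood at 0.28 ± 0.08, NFIL3 at 0.29 ± 0.11 and BTRC, a ubiquitin ligase subunit that marks PER proteins for breakdown, at 0.23 ± 0.08 log2 units (SE). PRKAA1, a catalytic subunit of the energy sensor AMPK, stood at -0.57 ± 0.21. In the combination against vehicle 5 lay there, against 13.2% of all genes: SIRT1 at -0.30 ± 0.09, BMAL2 at -0.34 ± 0.13, the coactivator gene PPARGC1A at -0.54 ± 0.21, PRKAA1 at -0.54 ± 0.21 and KLF10 at 0.19 ± 0.08. PRKAA1, PPARGC1A and BMAL2 were lower on replicate 1 than on replicate 2 in all 4 groups, as CLOCK and NR1D2 were. So were RORA and GSK3B of the 23, and 14.0% of all genes. RU-486 alone against vehicle placed 1 of the 23 at an unadjusted p under 0.05, KLF10 at 0.22 ± 0.08, against 3.10% of all genes. Progesterone against vehicle placed 2 there, BMAL1 and RORB, against 6.13% of all genes. RORB, a nuclear receptor that binds ROR elements, had a mean log2 level of 5.52, in the range of the background. For the interaction USP2, a deubiquitinase gene, stood at 0.39 ± 0.15. With BMAL1 that made 2 of the 23 at an unadjusted p under 0.05, against 5.28% of all genes.

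**Figure D4:**
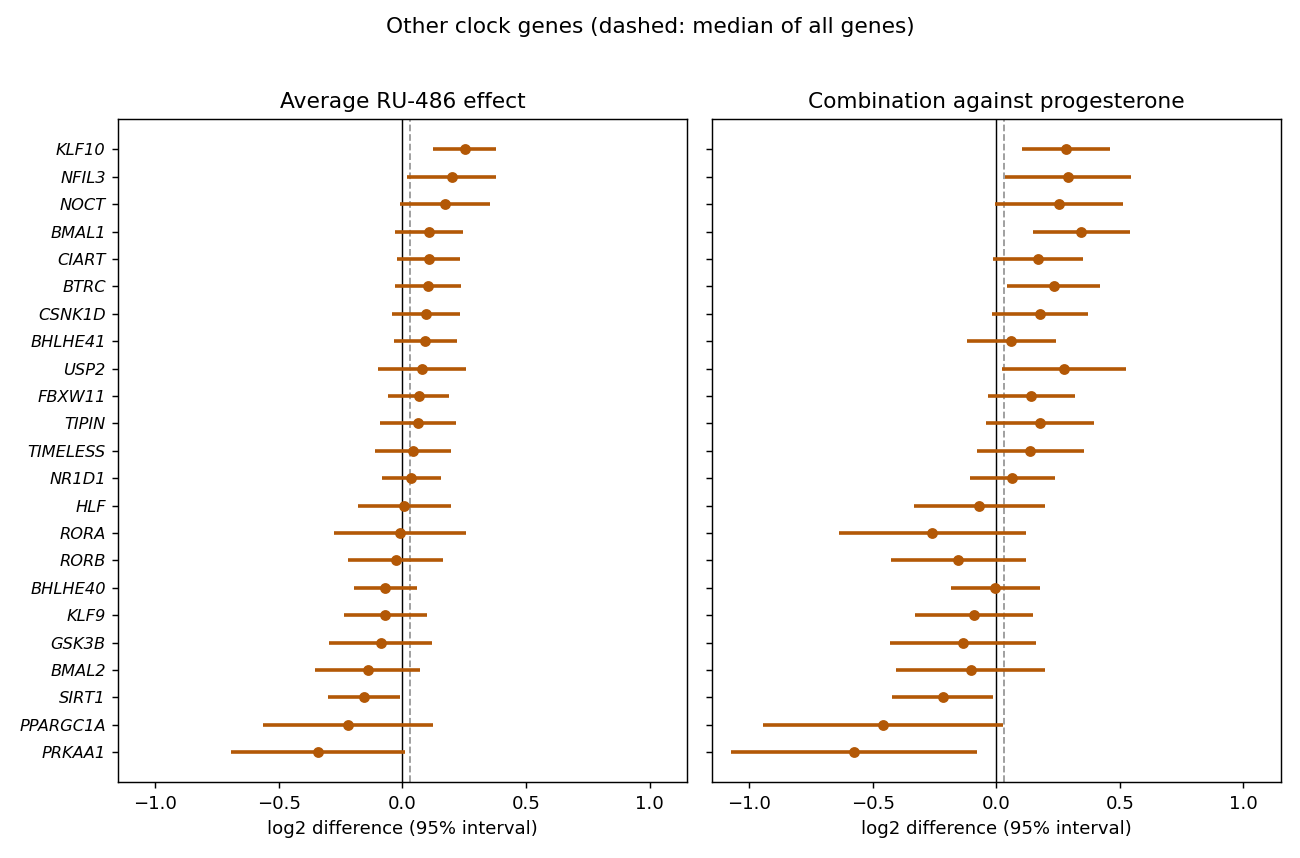
Fitted log2 differences of the 23 other clock genes for the average RU-486 effect and for the combination against progesterone, ordered by the former; points are estimates, lines are 95% intervals from limma and the dashed line is the median over all genes. KLF10 has the highest estimate on the left, at 0.25, and PRKAA1 the lowest on both sides, at -0.34 and -0.57.

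PER1 was also read beside genes that the glucocorticoid receptor induces and beside genes of the cAMP and serum response. Of 11 measured glucocorticoid receptor genes, PER1 among them, 10 were higher for the average RU-486 effect, where 62.5% of all genes were, with a median of 0.20 log2 units against 0.03 over all genes. The 1 lower gene was KLF9, named after its value was seen, at -0.07 ± 0.07 (SE). KLF9 is also among the 23 other clock genes. FKBP5, a further gene of the list, had no probe set that pairs with it alone. In limma 7 of the 11 lay at an unadjusted p under 0.05, against 11.0% of all genes, and 0 were called. The kinase gene SGK1 stood at 0.37 ± 0.06 (SE; limma adjusted p = 0.235) and TSC22D3, which encodes an anti-inflammatory leucine zipper protein, at 0.32 ± 0.08 (limma adjusted p = 0.385), beside 0.21 ± 0.06 for PER1. For the average progesterone effect SGK1 was at -0.06 ± 0.06 and TSC22D3 at -0.02 ± 0.08, and PER1 was at 0.13 ± 0.06. Of 10 measured cAMP and serum response genes 6 were higher with RU-486, close to the 62.5% of all genes, with a median of 0.05. For these limma called 0 and placed 3 at an unadjusted p under 0.05, against 11.0% of all genes. ATF3, a stress-induced factor, stood at 0.30 ± 0.07, the nuclear receptor gene NR4A2 at 0.30 ± 0.09 and the zinc finger factor gene EGR1 at -0.45 ± 0.13.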

How the data were processed

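Expression was measured as log2 values, deposited by the authors for 33297 probe sets on each array. The submitters' processing notes name limma, oligo and RMA; versions, settings and filters are not given in the sources used here. As a method, RMA makes the distributions of the arrays alike, which would remove a shift common to most genes, and it shrinks differences of dim genes. Array medians lay between 6.93 and 7.02, and the number of arrays limits the precision.

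Sample titles gave the groups and replicate numbers. In the platform annotation 19460 probe sets have 1 symbol, 1754 have several and 12083 are not listed. A RefSeq gene (GRCh38.p14) was found for 19429 of those with 1 symbol. For 769 genes with several probe sets the one with the highest mean was used. A limma model (3.58.1, R 4.3.3; lmFit, eBayes) of the 4 group means was fitted to all 8 arrays, with 4 residual degrees of freedom and Benjamini-Hochberg adjustment over all genes. The members and lists were chosen with earlier results of these data known. All members are named; other clock genes are named at an unadjusted p under 0.05, at most 5 per contrast, and of the 2 response lists the 3 genes with the smallest p. The fit was tested on simulated data. The alternatives were a block for the replicate number, leaving out each array, all probe sets, leaving out dim genes, quantile normalization, median centring, another variance model (eBayes with trend and robust), array weights, and only the groups compared. A covariate for the within-group direction was added after seeing the data.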

Additional observations from a re-analysis of the deposited data

How the results depend on the processing

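The count of clock genes called was 0 in all comparisons except under these settings. For the average RU-486 effect and for the combination against progesterone it was 1, NPAS2, with the variance that follows expression level. With each array left out it ran from 0 to 2 in both, and the 2 were NPAS2 and CLOCK without progesterone replicate 1. Over all genes the count for the average RU-486 effect was 6, and it ran from 0 to 998 with each array left out, 998 being without progesterone replicate 1. It was 12 without dim genes, 43 with the other variance model and 11 with the covariate. The combination against progesterone gave 0 genes, 1090 without progesterone replicate 1, and 17 with the other variance model or the covariate. Progesterone against vehicle gave 0, and 1228 without progesterone replicate 2. The cause was not tested. Of 70 differences of clock genes, 49 kept their sign under every alternative and 21, 0 of them called, did not.

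With the replicate number as a block the count of clock genes called was 0 in every comparison, and for the average RU-486 effect limma gave an adjusted p of 0.0852 for NPAS2, 0.144 for PER1, 0.156 for NR1D2 and 0.218 for CLOCK. The replicate differences of the groups correlated across genes at 0.20 to 0.51, and the labels tie the numbers to no shared day or culture.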
